A study of Mus musculus with 3 samples.

Results

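The genes described are 9 mouse CXC chemokine genes, chosen by name from the GENCODE M21 annotation, out of 55536 annotated genes in each library: Cxcl1, Cxcl2, Cxcl3, Cxcl5, Cxcl9, Cxcl10, Cxcl11, Cxcl14 and Cxcl16. RNA of the chromatin fraction was sequenced after ribosomal RNA depletion from bone-marrow-derived macrophages (BMDM) of strain C57BL/6J, which are primary cells grown from marrow. Every library came from cells given Lipid A, the TLR4-binding part of lipopolysaccharide, at 100 ng/ml for 12 h, then washed and left for 12 h, then given Lipid A at 100 ng/ml again for 25 min. There were 3 libraries, biological replicates 1 to 3, all of this 1 condition, and the labels give them 1 donor identifier without saying whether they came from separate animals, so the spread below is that between these libraries. No untreated or once-treated library was analysed here, so no value below is a response to Lipid A. Starting RNA differed (1 µg for replicate 1, 250 ng for replicate 2, 500 ng for replicate 3), so its amount and the replicate cannot be told apart.

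CXC chemokines are small secreted proteins named for a pair of conserved cysteines with 1 residue between them. Those that carry the residues ELR ahead of the cysteines, such as CXCL1, CXCL2, CXCL3 and CXCL5, bind CXCR2 and draw neutrophils. CXCL9, CXCL10 and CXCL11 lack them, bind CXCR3 and draw activated T cells and natural killer cells, and their genes are known as interferon-inducible. In macrophages the first class is a textbook target of NF-κB, while Cxcl10 is known to respond to NF-κB and to interferon regulatory factors. CXCL16, the ligand of CXCR6, is made as a membrane protein, and CXCL14 is mainly made by epithelia. Chromatin RNA is enriched for transcripts still at their gene, so these levels are nearer to transcription than those of cytoplasmic mRNA.

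Expected counts over annotated genes ran from 13502401 to 17848798 per library, and the 9 genes took 0.0846% of them in replicate 1, 0.0255% in replicate 2 and 0.0546% in replicate 3. Levels are in TPM, a unit scaled for transcript length and library total. A gene counts as detected where no library falls under 1 TPM. Of 6 macrophage markers (Adgre1, Csf1r, Cd68, Lyz2, Mertk and Itgam) 6 were detected, with a summed level of 786 to 840 TPM. None of the 6 neutrophil markers was detected (summed 0.7 to 1.1 TPM, S100a8 with 0 counts throughout), nor any of 5 fibroblast markers (0.01 to 1.5 TPM), although a second deposited quantification puts 1 of these, Col1a1, over the limit. Of 4 endothelial markers Kdr and Pecam1 were detected (summed 3.8 to 11.5 TPM), while Cldn5 had 0 counts. In bulk RNA, fewer cells that express a gene and less RNA per cell cannot be told apart.

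Of the 9 genes, 4 were detected: Cxcl10, Cxcl2, Cxcl16 and Cxcl1. For comparison, 43.9% of 22110 genes of the types protein_coding and polymorphic_pseudogene were detected (these are called coding genes below). The median of the mean levels was 2.03 TPM over the 9 genes, against 0.543 TPM over all coding genes and 11 TPM over the detected ones. Among coding genes ordered by mean TPM, Cxcl10 stood at place 179, Cxcl2 at 276, Cxcl16 at 1457 and Cxcl1 at 3728. Cxcl11 passed a TPM of 1 in replicate 1 alone, and Cxcl3, Cxcl9, Cxcl5 and Cxcl14 in no library.

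**Figure D1:**
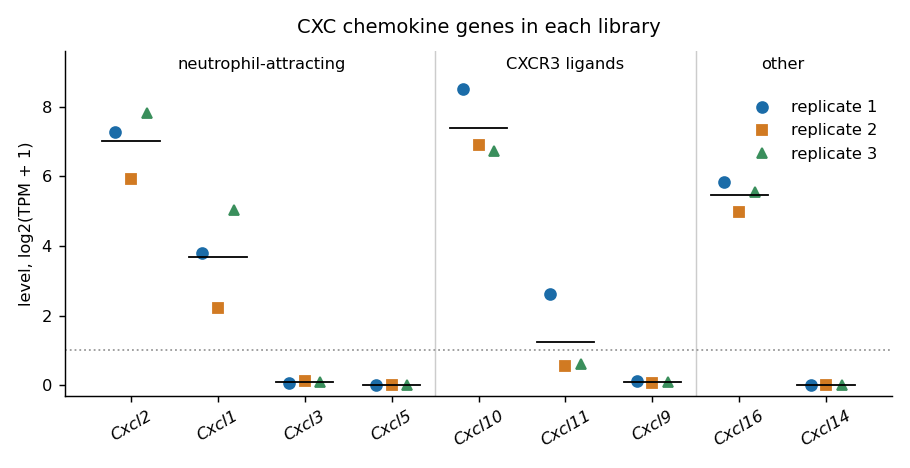
Level of each gene as log2(TPM + 1) in the 3 libraries (points) with their mean (line); the dotted line is a TPM of 1. Replicate 3 is highest for Cxcl2 and Cxcl1 and replicate 1 for Cxcl10, Cxcl11 and Cxcl16, while Cxcl3, Cxcl5, Cxcl9 and Cxcl14 lie at or near 0.

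All members but 2 lie on chromosome 5, in 2 clusters, and the sequences before their starts are shown because neighbours with the same letters had very different levels. RefSeq promoter windows of build GRCm38.p6, 250 bases before the start and 50 from it on, were found for 6 of the 9 genes, and entries for Cxcl5, Cxcl11 and Cxcl16 were not in the table used. Each was searched on both strands for the NF-κB consensus and for the core of the interferon-stimulated response element (ISRE), which reads GAAA, any 2 bases and GAAA, and on the gene's strand for TATAAA. Capitals mark NF-κB and ISRE matches. The windows are those of Cxcl2 (plus strand, chr5:90903649-90903948), Cxcl1 (plus strand, chr5:90890995-90891294), Cxcl3 (plus strand, chr5:90785851-90786150), Cxcl10 (minus strand, chr5:92348840-92349139) and Cxcl9 (minus strand, chr5:92328030-92328329), each written 5′ to 3′.
Cxcl2: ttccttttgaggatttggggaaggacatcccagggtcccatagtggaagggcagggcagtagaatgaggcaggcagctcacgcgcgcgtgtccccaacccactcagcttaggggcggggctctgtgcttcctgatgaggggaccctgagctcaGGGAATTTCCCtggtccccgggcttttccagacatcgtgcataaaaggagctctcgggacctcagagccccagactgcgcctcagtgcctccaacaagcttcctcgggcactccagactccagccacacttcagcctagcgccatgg
Cxcl1: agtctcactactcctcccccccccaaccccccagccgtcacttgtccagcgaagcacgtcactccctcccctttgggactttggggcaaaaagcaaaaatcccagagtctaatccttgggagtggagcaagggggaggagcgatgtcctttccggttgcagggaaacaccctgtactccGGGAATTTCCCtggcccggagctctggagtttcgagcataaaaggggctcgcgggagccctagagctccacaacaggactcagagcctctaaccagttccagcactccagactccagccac
Cxcl3: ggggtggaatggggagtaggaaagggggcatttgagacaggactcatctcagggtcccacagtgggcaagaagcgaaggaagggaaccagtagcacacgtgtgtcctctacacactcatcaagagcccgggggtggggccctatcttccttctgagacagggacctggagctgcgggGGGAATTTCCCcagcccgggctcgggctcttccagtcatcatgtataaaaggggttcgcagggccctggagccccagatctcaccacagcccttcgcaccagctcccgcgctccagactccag
Cxcl10: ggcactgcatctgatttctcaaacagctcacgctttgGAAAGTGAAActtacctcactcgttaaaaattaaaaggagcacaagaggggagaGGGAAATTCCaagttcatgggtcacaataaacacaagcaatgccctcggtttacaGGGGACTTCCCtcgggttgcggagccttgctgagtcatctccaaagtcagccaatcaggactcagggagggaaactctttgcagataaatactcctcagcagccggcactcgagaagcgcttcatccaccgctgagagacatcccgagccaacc
Cxcl9: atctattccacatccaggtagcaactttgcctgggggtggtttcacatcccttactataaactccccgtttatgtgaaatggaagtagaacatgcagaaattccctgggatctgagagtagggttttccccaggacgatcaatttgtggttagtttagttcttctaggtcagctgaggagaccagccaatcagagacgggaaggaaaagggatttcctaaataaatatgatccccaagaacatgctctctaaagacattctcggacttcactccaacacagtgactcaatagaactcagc

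The same NF-κB match, GGGAATTTCC, ended 88 bases before the start in Cxcl2, 62 in Cxcl1 and 64 in Cxcl3. A match on the other strand overlapped it with a shift of 1 base in each. These distances count from the RefSeq starts, which differ from the GENCODE starts given below, so they depend on the annotation. Cxcl10 held GGGAAATTCC, ending 150 bases before the start, the overlapping GGGGACTTCC and GGGACTTCCC, ending 95 and 94 bases before it, and the ISRE core GAAAGTGAAA, ending 204 bases before it. The Cxcl9 window had no match to either motif, and the Cxcl14 window (chromosome 13, minus strand) had an ISRE match, GAAACAGAAA, and no NF-κB match. TATAAA was found in Cxcl3, ending 25 bases before the start, and in Cxcl9, ending 190 bases before it. Among 32851 promoter windows of this length, 8.46% held an NF-κB match, 3.44% an ISRE match and 8.32% TATAAA. A match is a run of letters and was not tested as a binding site.

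In the neutrophil-attracting class, Cxcl2 and Cxcl1 were present and Cxcl3 and Cxcl5 were near or at 0. Cxcl2 (ENSMUSG00000058427.10, chromosome 5, 90903871 to 90905938, plus strand), known in macrophages as MIP-2, stood at 153 TPM in replicate 1, 59.7 in replicate 2 and 227 in replicate 3, from 2653, 1283 and 5154 expected counts. Its mean was 147 ± 84 TPM (SD, n = 3), and the highest library was 3.81 times the lowest. Replicate 3 was high and replicate 2 low. The intervals deposited with the posterior mean TPM, which are on a slightly lower scale than TPM, did not overlap between libraries: 131 to 151, 49.9 to 62.3 and 202 to 223.

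Cxcl1 (ENSMUSG00000029380.11, chromosome 5, 90891241 to 90893115, plus strand), also called KC, followed the same order of libraries with 12.9 TPM in replicate 1, 3.64 in replicate 2 and 31.8 in replicate 3, from 240, 81 and 767 counts (mean 16.1 ± 14.4, SD, n = 3). The highest library was 8.74 times the lowest, more than for Cxcl2. The starts of these genes lie 12.6 kb apart with no other coding gene between them, and Cxcl2 exceeded Cxcl1 by 11.8, 16.4 and 7.14 times in replicates 1, 2 and 3.

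Cxcl3 (ENSMUSG00000029379.10) carries the same NF-κB letters and starts 105.1 kb from Cxcl1, yet had 0.05, 0.08 and 0.07 TPM from 2, 2 and 3.01 counts. Cxcl5 (ENSMUSG00000029371.7), at the far end of the cluster, had 0 counts in each library, which allows up to 3 counts per library or 0.149, 0.127 and 0.118 TPM in replicates 1, 2 and 3. Such limits, and the Poisson intervals below, take in counting error and nothing else, because PCR copies carry no molecular identifier. Of the genes between Cxcl5 and Cxcl2, Cxcl15 had 0 counts in the first table, and Ppbp, the gene of the platelet chemokine CXCL7, had 1, 0 and 0 counts. Pf4, which encodes the platelet factor CXCL4, was at 0.87, 5.44 and 4.82 TPM from 3, 16 and 16 counts, lowest in replicate 1. Mthfd2l, the next coding gene beyond Cxcl2, was at 4.53, 2.73 and 4.36 TPM.

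**Figure D2:**
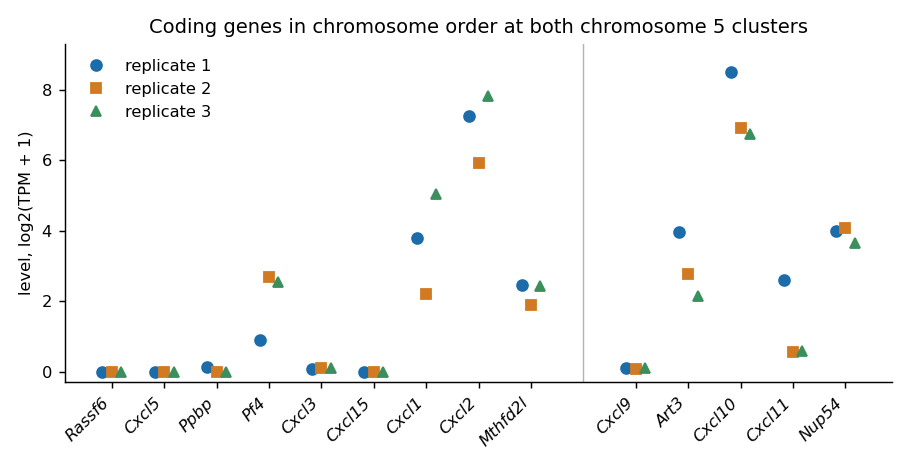
Coding genes in their order along chromosome 5 at the Cxcl5 to Cxcl2 cluster (left) and the Cxcl9 to Cxcl11 cluster (right), with log2(TPM + 1) in each library as points. Cxcl2 and Cxcl10 stand above every other gene shown in all 3 libraries, and Cxcl1 lies within the range of other genes except in replicate 3.

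In the CXCR3 ligand class, 1 gene held nearly all of the RNA. Cxcl10 (ENSMUSG00000034855.13, chromosome 5, 92346638 to 92348889, minus strand), which encodes IP-10, stood at 365 TPM in replicate 1, 119 in replicate 2 and 106 in replicate 3, from 6938, 2171 and 2211 counts (mean 197 ± 146, SD, n = 3). Replicate 1 was high, and replicates 2 and 3 were alike: their deposited intervals overlapped (100 to 123 and 91.7 to 107), while that of replicate 1 (324 to 350) lay apart. Without replicate 1 the mean was 112 TPM, below that of Cxcl2 in the same libraries (143 TPM), so replicate 1 decides the place of Cxcl10 above Cxcl2. The endothelial marker Kdr was also highest in replicate 1, at 9.44, 1.8 and 2.99 TPM, with Cldn5 at 0 and Cdh5 at 0.1, 0.12 and 0 TPM, and its part in the result was not tested.

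Cxcl11 (ENSMUSG00000060183.6, chromosome 5, 92359544 to 92365485, minus strand) showed the same library at the top, with 5.1 TPM in replicate 1, 0.47 in replicate 2 and 0.51 in replicate 3. These rest on 101, 11 and 14 counts. As CPM, counts scaled to the library total, that is 7.48 with an exact 95% Poisson interval of 6.09 to 9.09 in replicate 1, against 0.616 (0.308 to 1.1) in replicate 2 and 0.785 (0.429 to 1.32) in replicate 3, so the step between libraries exceeded counting error. The annotation classes Cxcl11 as a polymorphic_pseudogene, and C57BL/6 mice are known to carry a frameshifted copy. Its RNA was nonetheless assigned mainly to the transcript Cxcl11-201, with 95.1%, 95.7% and 88.5% of the gene's TPM. Cxcl9 (ENSMUSG00000029417.9), which encodes MIG and starts 20.8 kb from Cxcl10, had 3, 2 and 3 counts, or 0.08, 0.05 and 0.07 TPM.

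Art3, an ADP-ribosyltransferase gene, runs across Cxcl10 and Cxcl11 on the opposite strand. It had 14.6, 5.88 and 3.47 TPM, with replicate 1 highest as for Cxcl10. Nearly all of its counts (301.6 of 305.6, 135.1 of 137.1 and 79.22 of 83.22) were assigned to a single noncoding processed_transcript that shares 133 exon bases with the 3′ end of Cxcl10. No other Art3 transcript shares an exon base with it. Whether counting used strand is not given in the sources used here, so reads of the 2 genes in that stretch cannot be told apart. Nup54, the nucleoporin gene beyond Art3, was even at 15.1, 15.8 and 11.5 TPM. Cxcl11 shares 1582 exon bases with Gm2673, a processed pseudogene on the other strand with 0 counts.

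Cxcl16 (ENSMUSG00000018920.11, chromosome 11, 70453983 to 70459984, minus strand) was the most even of the detected members, at 55.9 TPM in replicate 1, 30.2 in replicate 2 and 46.3 in replicate 3, from 1488, 992.8 and 1586 counts (mean 44.1 ± 13, SD, n = 3). Its highest library was 1.85 times its lowest, and replicate 2 was low as for Cxcl1 and Cxcl2. Zmynd15 overlaps it on the opposite strand, with 552 shared exon bases and 9.79, 7.11 and 8.7 TPM. Cxcl14 (ENSMUSG00000021508.11, chromosome 13, 56288643 to 56296551, minus strand) had 0 counts in each library, which allows up to 0.156, 0.134 and 0.124 TPM in replicates 1, 2 and 3.

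By mean TPM the order was Cxcl10, Cxcl2, Cxcl16, Cxcl1, Cxcl11, Cxcl3, Cxcl9, and then Cxcl5 and Cxcl14 at 0. A neighbour was set apart where the difference in log2(TPM + 1) had 1 sign in every library and a mean above its SD. Cxcl10 and Cxcl2 were not, with a difference of 0.38 ± 1.28 and the opposite sign in replicate 3. In the first table Cxcl2 lay above Cxcl16 by 1.56 ± 0.66, Cxcl16 above Cxcl1 by 1.77 ± 1.13 and Cxcl1 above Cxcl11 by 2.43 ± 1.76, each in 3 of 3 libraries. The second quantification did not keep Cxcl2 above Cxcl16 in replicate 2 (34.9 against 36.8 TPM). There Cxcl1 was close to Cxcl11 in replicate 1 (11.2 against 9.55 TPM) and replicate 2 (2.73 against 2.59 TPM). Its lead over Cxcl11 rested mainly on replicate 3 (23.8 against 2.71 TPM). Cxcl16 stayed above Cxcl1 in every library. Cxcl11 lay above Cxcl3 by 1.16 ± 1.19, which is within the spread. The remaining pairs involve levels of at most 3.01 counts and carry no order, although Cxcl9 met the criterion over Cxcl5. In exact two-sided sign-flip tests the smallest possible p for 3 libraries is 0.25, and adjusted by Benjamini-Hochberg over 8 pairs the p-values of the exact tests were 0.4 or 1, so no pair could pass 0.05.

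The balance between the classes turned over among libraries. The neutrophil-attracting genes summed to 166 TPM in replicate 1, 63.4 in replicate 2 and 259 in replicate 3 (mean 163 ± 97.9, SD, n = 3), and the CXCR3 ligands to 371, 119 and 106 TPM (mean 199 ± 149, SD, n = 3). As shares of the TPM of all 9 genes, the first class took 28%, 29.8% and 62.9%, the second 62.5%, 56.1% and 25.8%, and Cxcl16 9.43%, 14.2% and 11.2%. The within-library difference of neutrophil-attracting minus CXCR3 class was -1.16, -0.91 and 1.29 on the log2 scale. Its mean was -0.26 ± 1.35, negative in 2 of 3 libraries (p = 1, exact sign-flip test, two-sided). Cxcl2 over Cxcl10 alone gave ratios of 0.419, 0.502 and 2.15. Neither class was thus higher beyond the spread between libraries, and the mean took the other sign without replicate 1 (0.19) or without replicate 2 (0.06).

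**Figure D3:**
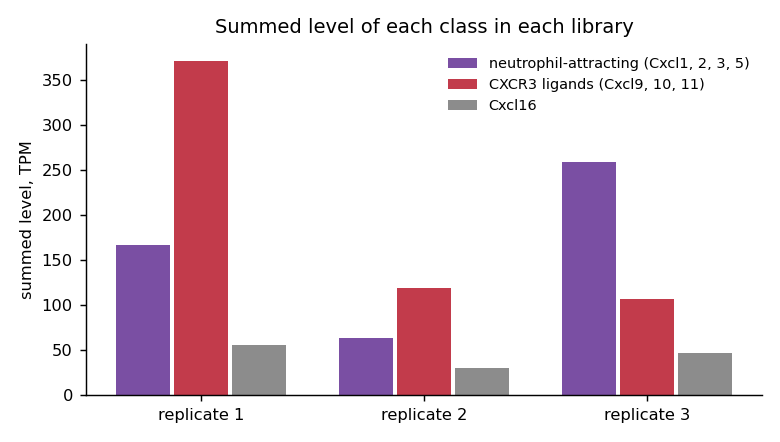
Summed TPM (bars from 0, 1 library each) of the neutrophil-attracting genes, the CXCR3 ligands and Cxcl16. The CXCR3 ligands lead in replicates 1 and 2 and the neutrophil-attracting genes in replicate 3, where they reach 259 TPM against 106 TPM.

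Most of the RNA of Cxcl10, Cxcl2 and Cxcl1 was assigned to transcripts annotated as retained_intron. For Cxcl1 and Cxcl2, and for Cxcl10, the annotation holds a single-exon transcript that covers nearly the whole gene, so that unspliced RNA has a model to fall on. Cxcl2-203, of 2066 bases in a gene of 2068, held 55.4%, 61.8% and 49.5% of the gene's TPM in replicates 1, 2 and 3. Cxcl1-202, of 1871 bases in a gene of 1875, held 70.1%, 74.2% and 74.9%. Cxcl10-204, of 2230 bases in a gene of 2252, held 54.7%, 44.6% and 41.4%.

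The fully spliced Cxcl10-201, with 4 exons, took 33.1%, 22% and 41.1% of that gene's TPM, and the spliced Cxcl2-201 18.4%, 15.6% and 29.8%. Both spliced shares were highest in replicate 3 and lowest in replicate 2. That of Cxcl1-201 was 29.9%, 25.8% and 25.1%, highest in replicate 1 and nearly equal in replicates 2 and 3, with 10.59 counts in replicate 2. In the second quantification it was 31.5%, 22.2% and 26.7%, so its lowest library differed between the tables. With the short 2-exon models Cxcl10-203 and Cxcl2-204 included, retained_intron transcripts held 66% ± 9.01 of Cxcl10, 73.8% ± 10.4 of Cxcl2 and 73.1% ± 2.57 of Cxcl1 (SD, n = 3). Cxcl16 has no whole-gene model, and its 6-exon retained_intron transcript Cxcl16-203 held 40.5% ± 2.63.

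Over 4730 genes with both kinds of transcript and no library under 5 TPM, the median retained_intron share was 46.9%, 47.7% and 43.2% in replicates 1, 2 and 3. Of these genes 90.7% had a lower mean share than Cxcl2, 81.9% than Cxcl10 and 40.8% than Cxcl16, and Cxcl1 was below the TPM limit in replicate 2. Cxcl5, Cxcl9, Cxcl11, Cxcl14 and Cxcl16 have no single-exon model, so intronic reads of these genes outside annotated exons enter no value here.

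**Figure D4:**
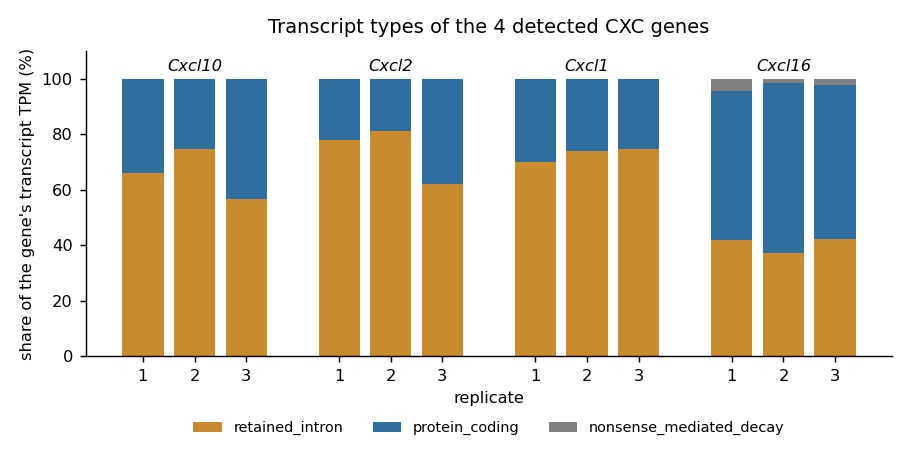
Share of each detected gene's transcript TPM (percent, stacked to 100) by annotated transcript type in each library. The retained_intron share lies between 56.9% and 81.3% for Cxcl10, Cxcl2 and Cxcl1 and between 37.5% and 42.3% for Cxcl16.

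A second quantification, deposited per transcript and summed here over each gene, raised Cxcl3, Cxcl5, Cxcl9 and Cxcl11 and lowered Cxcl10, Cxcl2 and Cxcl1. It gave Cxcl10 303, 68 and 78.8 TPM, Cxcl2 131, 34.9 and 175 and Cxcl1 11.2, 2.73 and 23.8, each below the first table in every library and with the same highest library. Cxcl16 was higher, at 79.8, 36.8 and 58 TPM. Cxcl3 had 14.1, 34.5 and 15.3 estimated counts, or 0.25, 0.369 and 0.174 TPM, and stayed under the detection limit. Cxcl5, at 0 counts in the first table, had 34.6, 50.1 and 69.2 estimated counts, all on Cxcl5-201, or 1.47, 1.29 and 1.93 TPM.

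Cxcl11 had 9.55, 2.59 and 2.71 TPM in that table, which makes 6 detected members in place of 4, against 53.6% of coding genes. Cxcl9 had 1.65, 0.449 and 0.813 TPM from 76.1, 34.2 and 58.2 estimated counts. Replicate 1 was the highest for both. Whether Cxcl5 was transcribed at a level near 1 TPM therefore differs between the tables. Cxcl14 stayed at 0.

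**Figure D5:**
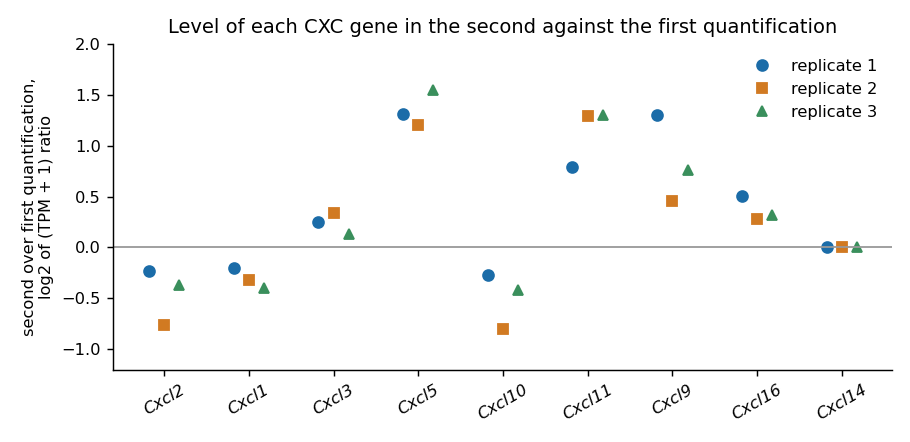
Log2 ratio of (TPM + 1) in the second over the first quantification for each gene and library (points); 0 is equality. Cxcl2, Cxcl1 and Cxcl10 lie below 0 in every library, and Cxcl5 lies highest in replicate 3 at 1.55.

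Cxcl1, Cxcl2 and Cxcl10 differed between libraries more than nearly all other detected genes, and Cxcl16 did so far less. Between its highest and lowest library Cxcl1 spanned 3.18 in log2 CPM after TMM normalization, Cxcl2 1.94, Cxcl10 1.9 and Cxcl16 0.77, against a median of 0.41 over 9700 detected coding genes. The span was smaller than that of the gene in 99.9% of detected genes for Cxcl1, 99.6% for Cxcl2 and for Cxcl10, and 85% for Cxcl16. The biological coefficient of variation (BCV), the square root of edgeR's dispersion and drawn toward the trend of all genes, was 0.643 for Cxcl11, 0.513 for Cxcl1, 0.405 for Cxcl10, 0.349 for Cxcl2 and 0.208 for Cxcl16, with a median of 0.203 over 14193 genes. Cxcl3, Cxcl5, Cxcl9 and Cxcl14 did not pass the low-count filter.

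These spreads had different libraries behind them. The deviations of log2 CPM from the gene's mean were 0.11, -1.64 and 1.53 for Cxcl1 and 0.18, -1.06 and 0.88 for Cxcl2, so replicates 2 and 3 stood on opposite sides. For Cxcl10 they were 1.26, -0.61 and -0.65, and for Cxcl11 2.16, -1.22 and -0.94, so replicate 1 stood alone. Without replicate 1 the BCV of Cxcl10 was 0.144 and that of Cxcl11 0.18, against a median of 0.165 over all genes, while Cxcl1 (0.462) and Cxcl2 (0.322) stayed above it. Without replicate 2 the values were 0.275 for Cxcl1, 0.202 for Cxcl2, 0.328 for Cxcl10 and 0.475 for Cxcl11, with a median of 0.207. Without replicate 3 they were 0.243 for Cxcl1, 0.227 for Cxcl2 and 0.232 for Cxcl10, with a median of 0.24, and Cxcl11 did not pass the filter. Of the 4 detected members, 3 were lowest in replicate 2, as were 34.9% of detected coding genes. Cxcl10 was lowest in replicate 3, as were 22.6%, but only by 127 against 130 TMM CPM in replicate 2. No detected member was lowest in replicate 1, where 42.5% of detected coding genes had their lowest value.

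Of 17 other genes of the CXC system, listed for their role, 3 were detected in the first table, where 43.9% of coding genes were: Cxcr6, Adam17 and Adam10. The second quantification detected 7, against 53.6% of coding genes, by adding Cxcr2, Cxcl15, Cxcl17 and Pf4. Cxcr6, the receptor of CXCL16, was at 8.91, 7.2 and 6.03 TPM. The sheddases of CXCL16 stood at 56.6, 35.4 and 35.9 TPM (Adam17) and 14.4, 12.2 and 11.9 TPM (Adam10), so RNA of the ligand, the receptor and the sheddases was present on chromatin. The tables differ on Cxcr2, the receptor of the neutrophil-attracting class, which had 1, 0 and 0 counts in the first and 4.68, 2.8 and 2.64 TPM, from 228, 226 and 200 estimated counts, in the second. Cxcr3, the receptor of the other class, was not detected in either, with 3, 10 and 3 counts in the first table and 3, 13 and 5 in the second. Cxcr1 had 0, 0 and 2 counts in both.

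Cxcr4, the receptor of CXCL12, was near the limit with 1.87, 0.8 and 1.8 TPM in the first table, and Cxcl12 itself had 1 count in each library there. Cxcr5 had 6, 5 and 3 counts in the first table. Ackr1 had 0 counts in both tables, while Ackr3 had 0 throughout in the first and 12, 20 and 13 in the second. Cxcl13 had 0 in the first table and 0, 11 and 3 in the second. Cxcl15 was at 0 in the first table but at 2.02, 2.76 and 2.7 TPM, from 66.6, 150 and 137 estimated counts, in the second. Cxcl17 had 3, 3 and 2 counts in the first table and 2.2, 2.1 and 1.97 TPM in the second, so these low ligands differ between tables as Cxcl5 does. Dpp4, which encodes a peptidase that trims CXC chemokines, had 7, 2 and 8 counts in the first table. Pf4 was at 2.34, 6.58 and 10.8 TPM in the second. Cxcl10, Cxcl2, Cxcl16 and Cxcl1 were thus the ligands detected in both tables.

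All 12 listed regulators of these genes were detected in both quantifications, where 43.9% (first) and 53.6% (second) of coding genes were. Irf1, an interferon regulatory factor, was at 613, 247 and 374 TPM, with replicate 1 highest as for Cxcl10. Its lowest library was replicate 2, while Cxcl10 was alike in replicates 2 and 3. Stat2, a signal transducer of type I interferon, was at 701, 607 and 448 TPM, also highest in replicate 1. In the second quantification Cxcl10 was lowest in replicate 2 (303, 68 and 78.8 TPM) and Stat2 in replicate 3 (891, 602 and 533 TPM). Irf9 (40.9, 41.6 and 37.2) was even, and Irf3 (64.6, 91.6 and 58.6) was highest in replicate 2.

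On the NF-κB side, the inhibitor gene Nfkbia was at 268, 157 and 282 TPM in replicates 1, 2 and 3, and Nfkbiz at 154, 58.9 and 128. Both were lowest in replicate 2, as was Cxcl2. Nfkbia was highest in replicate 3 by a small margin, but in replicate 1 in the second quantification (508, 277 and 458 TPM). Nfkbiz was highest in replicate 1, unlike Cxcl2. Tnfaip3, which encodes A20, was at 269, 122 and 192 TPM. The subunit genes Rela (22.1, 17.5 and 18.5) and Nfkb1 (80.6, 65.6 and 69.7) varied less. Of the genes for proteins that destabilise chemokine mRNA, Zfp36 was at 215, 131 and 187 TPM and Zc3h12a at 28.8, 32.1 and 31.2.

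The genes nearest in pattern were sought among 9700 detected coding genes by the Euclidean distance of log2(TPM + 1) over the 3 libraries. For Cxcl10 these were Cmpk2 (distance 0.24, with 318, 126 and 98.4 TPM), Slfn8 (0.65, with 252, 135 and 133 TPM) and Mx2 (0.7, with 346, 187 and 125 TPM). All are known as interferon-stimulated genes. For Cxcl2 they were Clec4e (0.65, with 222, 64.3 and 177 TPM), Ifrd1 (0.74, with 227, 74.5 and 291 TPM) and Nfkbiz (0.82). Clec4e encodes the receptor Mincle. With 3 libraries such a distance describes level and order only.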

How the data were processed

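Chromatin-fraction RNA of 3 libraries of 1 condition was analysed. Per the file headers, the deposited gene and first transcript tables hold expected counts, TPM and posterior mean TPM with interval bounds, in columns named as RSEM names them, and the second transcript table holds estimated counts and TPM under column names that kallisto writes. Per the notes deposited beside the files, the build was mm10 and the annotation GENCODE M21. The deposited TPM is scaled over all rows, spike-in and tRNA rows included, so a library rich in those lowers every gene. Which aligner was run, and whether counting used strand, is not given in the sources used here. Rows that name no annotated gene held 1.75%, 0.396% and 0.239% of expected counts in replicates 1 to 3 and were left out of counts and fits. The floor of 3 counts was 0.222, 0.168 and 0.168 CPM.

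The 9 genes, the lists and the rules were chosen with earlier results of these data known. All 9 genes were named, with the genes of both lists (1 of them is not reported here) and the 3 genes nearest in pattern to each of the 2 highest members. Expected counts were rounded for edgeR 4.0.16 in R 4.3.3 (filterByExpr, TMM, intercept-only dispersion), with size factors of DESeq2 1.42.0 as an alternative. Differences between genes were taken within libraries in log2(TPM + 1), pseudocount 1, and tested with exact sign-flip tests. Promoter sequences came from RefSeq. Protein features were not analysed here. The dispersion estimate and the motif search were tested on simulated data. Tables and figures were made with matplotlib 3.10.9, scipy 1.17.1, pandas 2.3.3 and numpy 2.4.6 under Python 3.11.15.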

Additional observations from a re-analysis of the deposited data

How the results depend on the processing

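The 4 detected members, with 43.9% of coding genes detected, became 6 with the second quantification (Cxcl5 and Cxcl11 added, 53.6% of coding genes). They were 5 with TPM rescaled over coding genes (Cxcl11 added, 50.8%) and 4 with posterior mean TPM (50.2%). Without any 1 replicate they stayed at 4, with 44.4% to 44.8% of coding genes. They were 3 at a TPM of at least 5 and 4 at a TPM of at least 0.5, where the share of coding genes was not computed. The class difference of -0.26 ran from -1.04 to 0.19 when 1 replicate was left out, and took the other sign without replicate 1 (0.19) and without replicate 2 (0.06). Under the other alternatives it lay between -0.38 and -0.18. The last of these used summed TMM CPM, and the first, Cxcl2 against Cxcl10 alone, was added after seeing the data. The 3 detected genes of the other CXC genes became 7 with the second quantification, 6 with posterior mean TPM and 5 with rescaled TPM. They were 3 to 4 when 1 replicate was left out, and all these alternatives were added after seeing the data. The shares of coding genes given above for these settings apply here too. The number of neighbouring pairs set apart, 4, was 4 to 6 under every alternative run, but the pairs themselves were not always the same. In the second quantification Cxcl2 over Cxcl16 was not among them, since Cxcl16 was the higher in replicate 2 (36.8 against 34.9 TPM). The order after Cxcl11 there was Cxcl5, Cxcl9, Cxcl3 and Cxcl14, so other pairs of low members were compared. The 5 of 5 measured members with a BCV above the median of all genes became 1 to 4 when 1 replicate was left out. It was 4 of 5 without replicate 1, 3 of 5 without replicate 2 and 1 of 4 without replicate 3, and 6 of 7 with no filter on low counts. The 3 members lowest in replicate 2 were 3 or 4 under the other scalings. Rescaling TPM over coding genes raised every level above 0 by its own construction, Cxcl10 to 697 TPM for example. The retained_intron share of Cxcl16 was 59.8% with the second quantification and 28.9% by counts, an alternative added after seeing the data, against 40.5%. No paired analysis was possible because all libraries belong to 1 group. Depth limits the reading of Cxcl3, Cxcl5, Cxcl9 and Cxcl14, which had at most 3.01 counts in the first table.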
